A study of Mus musculus with 8 samples.

Results

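The 44 genes described here encode proteins of DNA replication and of cell division and were chosen by name: 14 replication genes (Mcm2 to Mcm7, Cdc6, Cdt1, Gins1, Gins2, Pcna, Rrm1, Rrm2 and E2f1), 25 mitotic genes, and 5 genes of the step into S phase (Ccnd1, Ccnd2, Ccne1, Ccne2 and Cdk2), called the G1/S genes below. For each gene the probe set that carries its symbol alone was used, and where there were several, the brightest over all arrays. Of the 44 genes, 42 were measured among 22180 genes on the arrays, and 41 of these reached the level filter that 15086 genes passed (a mean of 3.80, log2 signal). Gins1, a subunit of the replicative helicase, lay below the filter at a mean of 3.23, and the dimmest gene above it was Cdc6 at 4.31. Ccne2 and Ccnb1 had no probe set with that symbol alone and were not analysed here.

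RNA came from hearts of male C57Bl6N mice, taken 1 week after TAC (transverse aortic constriction, an operation in which the aortic arch is tied partly shut so that the ventricle pumps against raised pressure). There were 4 hearts with a knockout of CITED4, a co-regulator of transcription that binds CBP/p300, and 4 floxed control hearts, whose Cited4 allele carries recombination sites. All hearts had undergone TAC, and no unoperated heart was part of the comparison. The sources used here give neither the ages of the mice, the Cre driver nor whether control mice carried Cre, so an effect of Cre and an effect of the deletion cannot be told apart. The labels do not say how animals were assigned to litters or array runs. The p-values set the group difference only against the spread among these 4 and 4 hearts. An effect of litter or array run that differed between the groups could not be told apart from an effect of genotype.

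Cells that divide copy their DNA in S phase and separate it in mitosis, and they make the proteins for each step in waves. Replication genes are switched on by E2F factors as a cell leaves G1. Mitotic genes are switched on later, in G2, by B-MYB and FOXM1 bound to the MuvB core complex. In the adult mouse heart few cardiomyocytes enter the cycle, whereas fibroblasts, endothelial cells and leukocytes divide in response to pressure load. In bulk RNA of a heart, a change in the number of cycling cells and a change in the RNA of each such cell cannot be told apart.

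Array medians lay between 4.29 and 4.33 (log2 signal), and correlations between arrays ran from 0.979 to 0.988. Cited4 was at 5.26, 5.15, 4.83 and 5.02 in the knockout hearts, against 5.89, 5.76, 6.05 and 6.22 in the control hearts (log2 signal, replicates 1 to 4). The groups did not overlap, and the difference was -0.91 ± 0.12 (log2, SE), with a limma adjusted p of 0.277 and an exact permutation p of 0.0286. The signal in knockout hearts was 53.1% of that in control hearts, and whether the probe set covers the deleted exons is not stated in the sources used here. All 15 cardiomyocyte markers examined were above the level filter. Knockout replicate 2 stood apart in atrial markers: their mean deviation was 1.31 in that heart, against -0.39 to 0.09 in the other 7 hearts (log2, 9 genes).

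Mitotic genes had higher mean signals in the knockout hearts, and replication genes differed little. The mean was higher for 23 and lower for 1 of 24 tested mitotic genes, and their median difference was 0.22 (log2, knockout minus control). Replication genes numbered 13 after the filter, 9 higher and 4 lower, at a median of 0.02. The 4 G1/S genes, 1 higher and 3 lower, had a median of -0.02. Among all 15086 genes tested, 51.2% were higher and 48.8% lower in the knockout, and the median was 0.00.

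No single gene passed the test. Limma with Benjamini-Hochberg adjustment over the 15086 genes called 0 of the 41 cell cycle genes and 0 genes (0%) over the whole table at an adjusted p of 0.05. At an unadjusted p under 0.05 there were 11 cell cycle genes higher and 0 lower, 9 of them mitotic, where 5.64% of all genes were higher and 5.61% lower at that threshold. This count of 11 depended on single arrays: it was 7 without knockout replicate 2, 6 without knockout replicate 3, 6 without control replicate 2, 6 without control replicate 3 and 5 without control replicate 4. The 4 knockout values lay above all 4 control values for Ckap2l, Tpx2, Ccnb2 and Cdk2, which is 4 of 41, and below them for 0, against 2.33% and 2.9% of all genes tested. The median of the mitotic genes ran from 0.15 (without control replicate 4) to 0.28 (without control replicate 1) when each array was left out in turn, and that of the replication genes from -0.02 to 0.08. Without knockout replicate 2, the heart with high atrial markers, the mitotic median was 0.20 and the replication median -0.02. Without knockout replicates 1 and 4 together, the mitotic median was 0.27 and the replication median 0.15, with 24 of 24 and 12 of 13 genes higher.

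**Figure D1:**
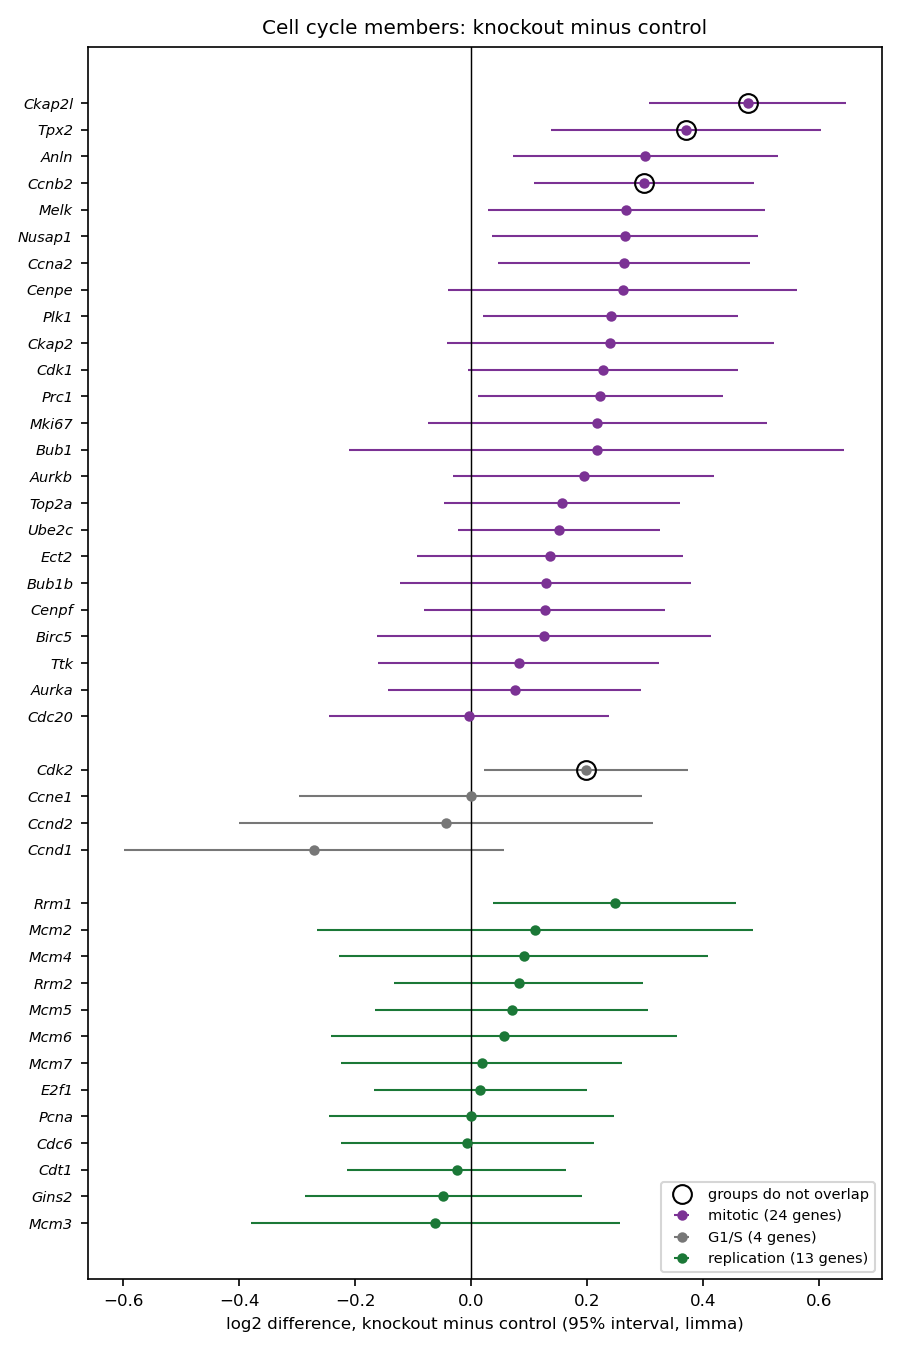
Log2 difference (knockout minus control) of the 41 tested cell cycle genes with limma's 95% interval, by class and ordered by size. Circled genes are those whose 4 knockout values do not overlap the 4 control values: Ckap2l, Tpx2, Ccnb2 and Cdk2. Of the 24 mitotic genes 23 lie right of 0, and the 13 replication genes lie on both sides of 0.

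The promoters of the genes were set beside the classes; the arrays do not measure them. The promoter windows came from RefSeq (GRCm38.p6) and covered 250 bases before to 50 bases from the first transcribed base on. They were found for 35 of the 44 genes, and a gene with several windows was counted once if any held a match. The windows of some genes, E2f1 and Cdc6 among them, lay around a start inside the annotated gene. Matches near the outer start of these genes were therefore not searched for. Both strands were searched for the cell cycle genes homology region (CHR, TTTGAA or TTCGAA), to which MuvB complexes bind, for the CCAAT box that NF-Y binds, and for the E2F consensus spelled out as TTTCCCGC, TTTCGCGC, TTTGCCGC or TTTGGCGC. A CHR was present in 17 of 22 mitotic promoters (77.3%) and in 2 of 11 replication promoters (18.2%), against 16.2% of the 11704 tested genes with a promoter. The E2F consensus was present in 1 of 22 mitotic promoters (4.5%), that of Cdk1, and in 6 of 11 replication promoters (54.5%), against 4.2% of tested genes. CCAAT boxes were present in 18 mitotic (81.8%) and 8 replication promoters (72.7%), against 41.4% of tested genes. Within 50 bases of the first transcribed base on either side, a distance chosen after the matches were seen, 15 of 22 mitotic promoters held a CHR (68.2%) and 0 of 11 replication promoters did, against 4.2% of tested genes. These matches describe the sequence alone, and binding was not measured.

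**Figure D2:**
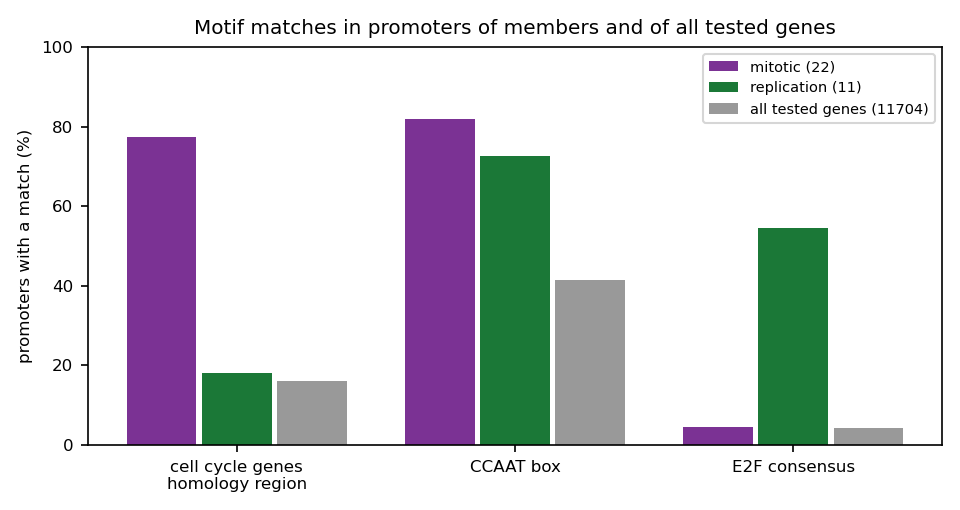
Share of promoter windows (in %) with at least 1 match to the cell cycle genes homology region, the CCAAT box or the E2F consensus, for 22 mitotic genes, 11 replication genes and all 11704 tested genes with a promoter. The homology region is found in 77.3% of mitotic and 18.2% of replication promoters, and the E2F consensus in 4.5% and 54.5%.

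The sequences that follow are stretches of 180 bases, from 150 bases before to 30 bases from the first transcribed base on, 5′ to 3′ on the gene's strand, with motif matches in capitals. Ckap2l (chr2:129297183-129297362, minus strand), Ccnb2 (chr9:70421525-70421704, minus strand) and Cdk2 (chr10:128705022-128705201, minus strand) are genes whose groups did not overlap. Cdk1 (chr10:69352883-69353062, minus strand) is the mitotic gene with an E2F match. Rrm1 (chr7:102441545-102441724, plus strand) is the replication gene with the smallest p, and Mcm6 (chr1:128359676-128359855, minus strand) is a replication gene with E2F matches. ATTGG reads as the CCAAT box on the other strand and TTCAAA reads as the CHR. In Mcm6 E2F matches on opposite strands overlap in 1 run of capitals. The stretches of Ckap2l and Ccnb2 each hold 3 CCAAT boxes, 1 CHR and 0 E2F matches, that of Cdk1 holds 2 CHRs, and those of Cdk2, Rrm1 and Mcm6 hold 0 CHRs.
Ckap2l: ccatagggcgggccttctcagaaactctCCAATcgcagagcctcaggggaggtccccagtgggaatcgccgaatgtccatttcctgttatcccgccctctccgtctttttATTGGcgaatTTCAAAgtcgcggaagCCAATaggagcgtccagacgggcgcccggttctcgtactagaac
Ccnb2: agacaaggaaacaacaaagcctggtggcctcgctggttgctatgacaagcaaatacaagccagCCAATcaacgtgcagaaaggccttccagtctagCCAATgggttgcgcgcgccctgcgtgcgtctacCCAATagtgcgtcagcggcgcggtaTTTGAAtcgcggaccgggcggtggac
Cdk1: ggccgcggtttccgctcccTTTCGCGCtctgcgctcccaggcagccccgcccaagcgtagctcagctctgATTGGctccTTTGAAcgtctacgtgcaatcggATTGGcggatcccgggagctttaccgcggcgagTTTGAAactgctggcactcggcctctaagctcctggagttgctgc
Cdk2: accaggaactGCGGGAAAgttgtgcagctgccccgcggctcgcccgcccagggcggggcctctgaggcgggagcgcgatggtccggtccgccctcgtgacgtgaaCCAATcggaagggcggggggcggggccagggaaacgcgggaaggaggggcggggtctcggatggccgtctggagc
Rrm1: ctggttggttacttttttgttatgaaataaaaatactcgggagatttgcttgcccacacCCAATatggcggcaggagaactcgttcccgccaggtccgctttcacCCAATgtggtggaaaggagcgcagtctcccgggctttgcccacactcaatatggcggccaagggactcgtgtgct
Mcm6: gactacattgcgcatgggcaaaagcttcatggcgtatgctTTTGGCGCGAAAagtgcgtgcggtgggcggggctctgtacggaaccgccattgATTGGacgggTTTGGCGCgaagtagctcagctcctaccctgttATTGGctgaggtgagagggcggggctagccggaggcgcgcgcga

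Among the 34 tested genes with a promoter, the 19 with a CHR had a median difference of 0.16, 18 of them higher in the knockout. The 15 without a CHR had a median of 0.07, 11 of them higher. The 8 genes with an E2F match had a median of 0.04, 5 of them higher, and the 26 without one a median of 0.15, 24 of them higher. Most genes with a CHR are mitotic. Within the mitotic class the 17 genes with a CHR had a median of 0.22 and the 4 without one (Birc5, Cenpe, Melk and Nusap1) a median of 0.26, so the mitotic genes with the motif did not have the larger median. Within the replication class the 2 genes with a CHR, Mcm2 and Mcm7, were at 0.11 and 0.02, and the 9 without one had a median of 0.02.

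Spindle assembly genes had a median difference of 0.32, and all 4 were higher in the knockout. Ckap2l, which encodes a protein of the mitotic spindle, was at 4.94, 4.89, 4.98 and 4.91 in knockout hearts, against 4.56, 4.49, 4.31 and 4.45 in control hearts (log2 signal, replicates 1 to 4). The knockout values lay close together and all above the controls. Its difference was 0.48 ± 0.08 (log2, SE; 95% interval 0.31 to 0.65), or 1.39-fold, with a limma adjusted p of 0.277 and an exact two-sided permutation p of 0.0286, the smallest that 4 against 4 arrays allow. Its unadjusted p (9.17e-05) was number 5 in size among the 15086 genes. Left-out arrays moved the difference between 0.43 and 0.51. Ckap2l was dim, at a level that 47.5% of the 22180 genes did not exceed.

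Tpx2, which activates Aurora A and nucleates microtubules near chromosomes, was at 6.19, 6.15, 6.50 and 6.23 in knockout hearts, against 6.06, 5.97, 5.83 and 5.72 in control hearts. Knockout replicate 3 was the highest, and the groups did not overlap. The difference was 0.37 ± 0.10 (SE), with a limma adjusted p of 0.421 and an exact permutation p of 0.0286. Nusap1, which bundles spindle microtubules, differed by 0.27 ± 0.10, and Ckap2, a microtubule-associated paralogue of Ckap2l, by 0.24 ± 0.13, both with overlapping groups. Ckap2 had a wider spread among controls (SD 0.27) than among knockout hearts (SD 0.10).

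Mitotic cyclins and their kinase were higher on average in all 3 measured cases. Ccnb2 encodes cyclin B2, a partner of Cdk1 at entry into mitosis. It was at 7.13, 7.43, 7.28 and 7.41 in knockout hearts, against 7.05, 7.04, 7.01 and 6.95 in control hearts. The lowest knockout value, in replicate 1, lay just above the highest control value. The difference was 0.30 ± 0.08 (SE), with a limma adjusted p of 0.421 and an exact permutation p of 0.0286. Ccna2, the S and G2 phase cyclin A2, differed by 0.26 ± 0.10, from 6.86 to 7.06 in knockout hearts, against 6.54 to 6.93 in control hearts. Cdk1, the mitotic kinase, was at 6.27, 6.15, 6.06 and 6.37 in knockout hearts, against 6.15, 6.02, 6.02 and 5.75 in control hearts. Its groups overlapped, with control replicate 4 the lowest, and the difference was 0.23 ± 0.10 (limma adjusted p = 0.453, exact permutation p = 0.0857).

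The proliferation antigens did not separate the groups. Mki67, which encodes Ki-67, the coat of mitotic chromosomes used as a stain for cycling cells, was at 8.12, 8.57, 8.42 and 8.32 in knockout hearts, against 8.41, 8.25, 7.92 and 7.98 in control hearts. Control replicates 1 and 2 lay within the knockout range, and knockout replicates 1 and 4 within the control range. The difference was 0.22 ± 0.13 (limma adjusted p = 0.535, exact permutation p = 0.171). Top2a, the topoisomerase that untangles sister chromatids, was at 6.64, 6.92, 6.82 and 6.89 in knockout hearts, against 6.83, 6.56, 6.65 and 6.62 in control hearts. Control replicates 1 and 3 lay within the knockout range, and the difference was 0.16 ± 0.09 (limma adjusted p = 0.526, exact permutation p = 0.143).

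**Figure D3:**
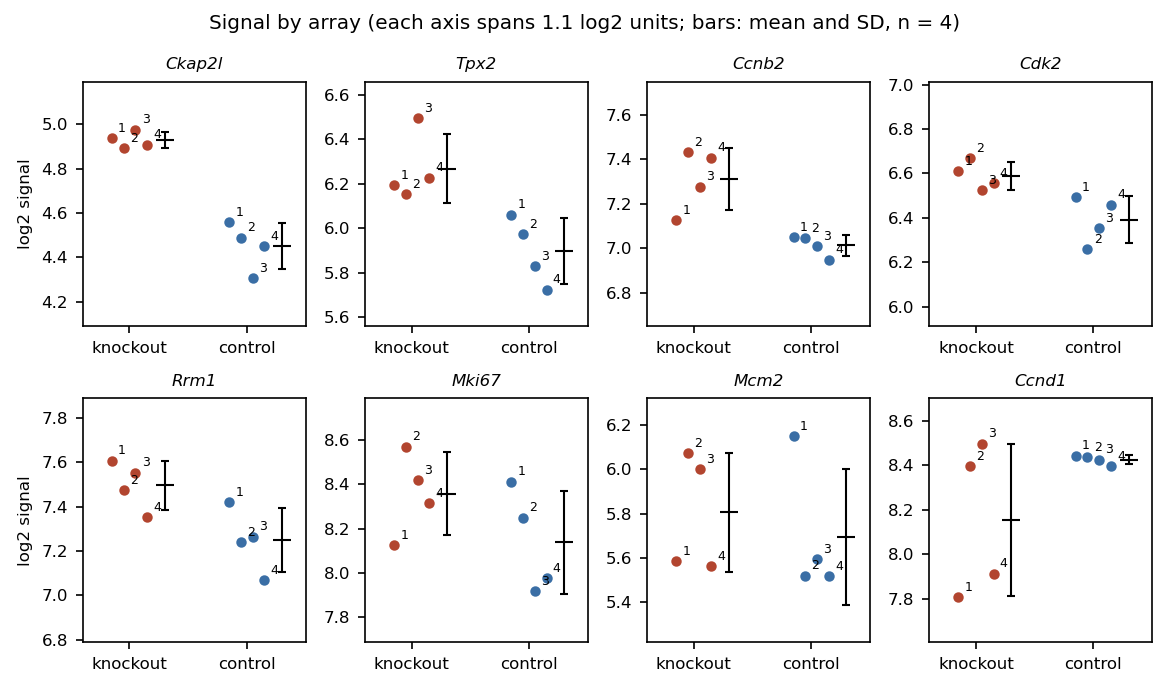
Log2 signal of 8 genes in each array, knockout left and control right, numbered by replicate; bars show mean and SD (n = 4 per group), and every axis spans the same range of log2 units. Ckap2l, Tpx2, Ccnb2 and Cdk2 do not overlap between the groups, Rrm1, Mki67 and Mcm2 do, and Ccnd1 is low in knockout replicates 1 and 4 only.

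All 5 mitotic kinases and passenger complex genes had higher means in the knockout hearts, with a median of 0.19. Melk, a kinase of the mitotic programme, differed by 0.27 ± 0.11 and Plk1, which drives mitotic entry and spindle formation, by 0.24 ± 0.10, each at an unadjusted limma p under 0.05 and with limma adjusted p-values of 0.424 and 0.427. Aurkb, the kinase of the chromosomal passenger complex, differed by 0.19 ± 0.10. Its partner Birc5 (survivin) differed by 0.13 ± 0.13 and Aurka, the spindle pole kinase activated by Tpx2, by 0.08 ± 0.10, neither larger than its standard error.

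Kinetochore and checkpoint genes differed less, with a median of 0.13 over 5 genes and 0 at an unadjusted p under 0.05. Cenpe, the kinesin that links kinetochores to microtubules, differed by 0.26 ± 0.14 and Cenpf, a kinetochore and nuclear matrix protein, by 0.13 ± 0.09. Bub1, a checkpoint kinase, had the widest spread of the class: it ran from 4.83 to 5.52 in knockout hearts, against 4.64 to 5.40 in control hearts, a difference of 0.22 ± 0.19. Bub1b, which encodes BubR1, differed by 0.13 ± 0.11 and Ttk, the kinase Mps1, by 0.08 ± 0.11.

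Of the genes that end mitosis, 1 of 2 for anaphase promotion and 3 of 3 for cytokinesis had higher means in the knockout. Cdc20, the activator of the anaphase-promoting complex, was the 1 mitotic gene with a lower mean in the knockout, with values of 5.67 to 6.08 in knockout hearts, against 5.73 to 6.09 in control hearts and a difference of -0.00 ± 0.11. Ube2c, the ubiquitin-conjugating enzyme of that complex, differed by 0.15 ± 0.08. Of the cytokinesis genes, Anln, which encodes the contractile ring scaffold anillin, differed by 0.30 ± 0.10, Prc1, the bundler of the spindle midzone, by 0.22 ± 0.09, and Ect2, the exchange factor that activates RhoA at the cleavage furrow, by 0.14 ± 0.10. Anln and Prc1 were at an unadjusted limma p under 0.05 with overlapping groups.

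Of the G1/S genes, Cdk2, the kinase of cyclins E and A, was at 6.61, 6.67, 6.53 and 6.56 in knockout hearts, against 6.49, 6.26, 6.36 and 6.46 in control hearts. The groups did not overlap, and the difference was 0.20 ± 0.08 (SE; limma adjusted p = 0.424, exact permutation p = 0.0286). Ccnd1 encodes cyclin D1, which with Cdk4 and Cdk6 inactivates RB. It was at 7.81, 8.40, 8.50 and 7.91 in knockout hearts, against 8.44, 8.44, 8.43 and 8.39 in control hearts. The controls lay within a few hundredths of each other (SD 0.02), knockout replicates 2 and 3 lay beside them, and knockout replicates 1 and 4 lay below (SD of the knockout 0.34). Its difference of -0.27 ± 0.15 (limma adjusted p = 0.501, exact permutation p = 0.343) rests on those 2 hearts and was 0.02 without them.

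Ccnd2, cyclin D2, showed a like pattern, at 8.89, 9.77, 9.56 and 9.30 in knockout hearts, against 9.37, 9.51, 9.43 and 9.39 in control hearts. Knockout replicates 2 and 3 were above all controls and replicates 1 and 4 below all controls, so the mean difference was -0.04 ± 0.16 (limma adjusted p = 0.932). The mean differed by 0.12 without knockout replicate 1 and by 0.24 without knockout replicates 1 and 4. Ccne1, cyclin E1, ran from 4.66 to 4.99 in knockout hearts, against 4.59 to 5.21 in control hearts, with a difference of -0.00 ± 0.13.

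Among the replication genes Rrm1, the large subunit of ribonucleotide reductase, had the widest difference. It was at 7.61, 7.47, 7.55 and 7.35 in knockout hearts, against 7.42, 7.24, 7.26 and 7.07 in control hearts. Knockout replicate 4 lay below control replicate 1, and the other knockout hearts lay above all controls. The difference was 0.25 ± 0.09 (limma adjusted p = 0.421, exact permutation p = 0.0571). Rrm2, the small subunit made in S phase, was at 5.15, 4.93, 5.17 and 4.85 in knockout hearts, against 5.05, 4.81, 5.00 and 4.92 in control hearts, with overlapping groups. Its difference was 0.08 ± 0.10 (limma adjusted p = 0.77, exact permutation p = 0.429), and a second, dimmer Rrm2 probe set (mean 2.19) differed by -0.14.

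The Mcm genes, which encode the hexameric helicase loaded on origins, differed by -0.06 to 0.11. Mcm2 was at 5.59, 6.07, 6.00 and 5.56 in knockout hearts, against 6.15, 5.52, 5.59 and 5.52 in control hearts. Control replicate 1 was the highest of all 8 hearts, and 2 knockout hearts lay beside the 3 lower controls. The difference was 0.11 ± 0.17 (limma adjusted p = 0.827, exact permutation p = 0.771). Mcm5 was at 5.43, 5.49, 5.55 and 5.30 in knockout hearts, against 5.60, 5.42, 5.32 and 5.14 in control hearts, again with control replicate 1 the highest. Its difference was 0.07 ± 0.11 (limma adjusted p = 0.825, exact permutation p = 0.6). The others differed by 0.09 ± 0.14 (Mcm4), 0.06 ± 0.13 (Mcm6), 0.02 ± 0.11 (Mcm7) and -0.06 ± 0.14 (Mcm3), none larger than its standard error.

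For the remaining tested replication genes the difference was smaller than its standard error. Pcna, the sliding clamp, was at 7.70, 8.10, 7.96 and 7.74 in knockout hearts, against 8.08, 7.84, 7.81 and 7.76 in control hearts. The range of each group covered most of the other, and the difference was 0.00 ± 0.11 (95% interval -0.25 to 0.25; limma adjusted p = 0.999, exact permutation p = 1). E2f1, the transcription factor that switches on S phase genes, was at 4.99, 4.82, 4.85 and 4.80 in knockout hearts, against 4.91, 4.96, 4.74 and 4.79 in control hearts, a difference of 0.02 ± 0.08 (limma adjusted p = 0.954, exact permutation p = 0.8). The licensing factors Cdc6 and Cdt1 differed by -0.01 ± 0.10 and -0.02 ± 0.09, and Gins2 by -0.05 ± 0.11. Gins1, below the level filter and not tested, differed by 0.09.

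The hearts differed more in level than the groups did for replication genes. Each array was given a score per class, which averages how far the class's genes lie from their own 8-array means. The mitotic score was -0.01, 0.15, 0.19 and 0.08 in knockout hearts, against 0.05, -0.07, -0.15 and -0.25 in control hearts (replicates 1 to 4). Control replicate 1 lay above knockout replicate 1, and the other controls lay below all knockout hearts. The replication score was -0.02, 0.14, 0.12 and -0.16 in knockout hearts, against 0.17, -0.08, -0.06 and -0.11 in control hearts. The highest replication score was thus in a control heart and the lowest in a knockout heart.

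Each heart's mitotic score minus its replication score was 0.01, 0.01, 0.07 and 0.24 in knockout hearts, against -0.12, 0.01, -0.09 and -0.14 in control hearts. It averaged 0.08 ± 0.11 in knockout hearts and -0.08 ± 0.07 in control hearts (SD, n = 4 each). The groups overlapped: control replicate 2 (0.0114) lay just above knockout replicates 1 (0.0091) and 2 (0.0105). Knockout replicate 4 was the farthest out: its value lay below the gene's mean in 13 of 13 replication genes and above it in 19 of 24 mitotic genes. The mitotic median exceeded the replication median by 0.20, and by 0.15 to 0.22 with each array left out. No p is given for these scores, since the genes were chosen with earlier results of these data known.

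**Figure D4:**
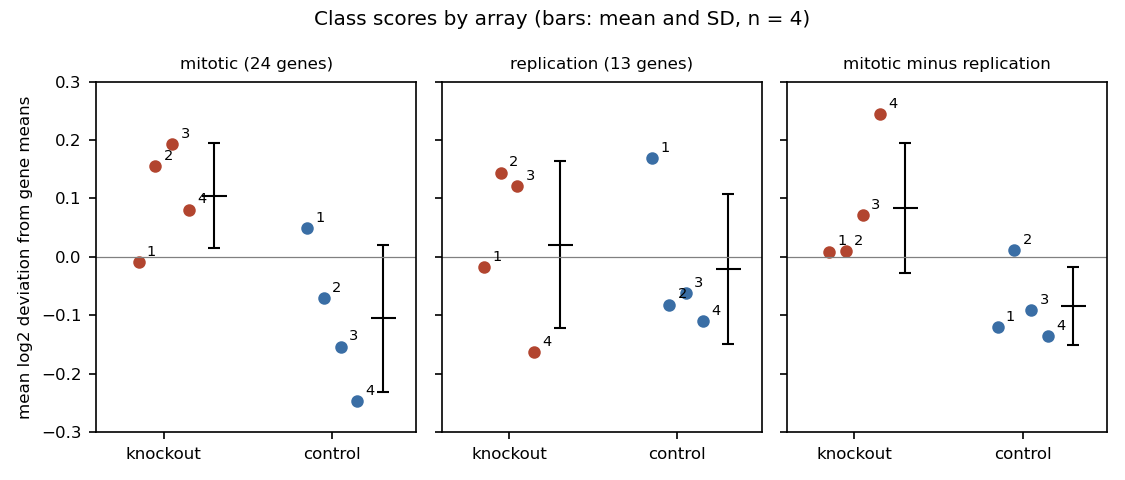
Mean log2 deviation from the gene means for the mitotic class (24 genes), the replication class (13 genes) and their difference in each heart, knockout left and control right, numbered by replicate; bars show mean and SD (n = 4 per group). The mitotic scores of knockout hearts lie above those of control replicates 2 to 4, and the replication scores of the groups overlap over most of their range.

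Counted gene by gene, knockout replicate 3 was the highest heart in 12 of 24 mitotic genes and knockout replicate 2 in 7, whereas control replicate 4 was the lowest in 13 and control replicate 3 in 6. Among the 13 replication genes control replicate 1 was the highest in 5 and knockout replicate 4 the lowest in 4. Control replicate 1 lay above the gene mean in 13 of 13 replication genes and in 16 of 24 mitotic genes, so it was the control heart nearest to the knockout hearts in the mitotic class. Control replicate 4 lay above the gene mean in 0 of 24 mitotic genes.

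**Figure D5:**
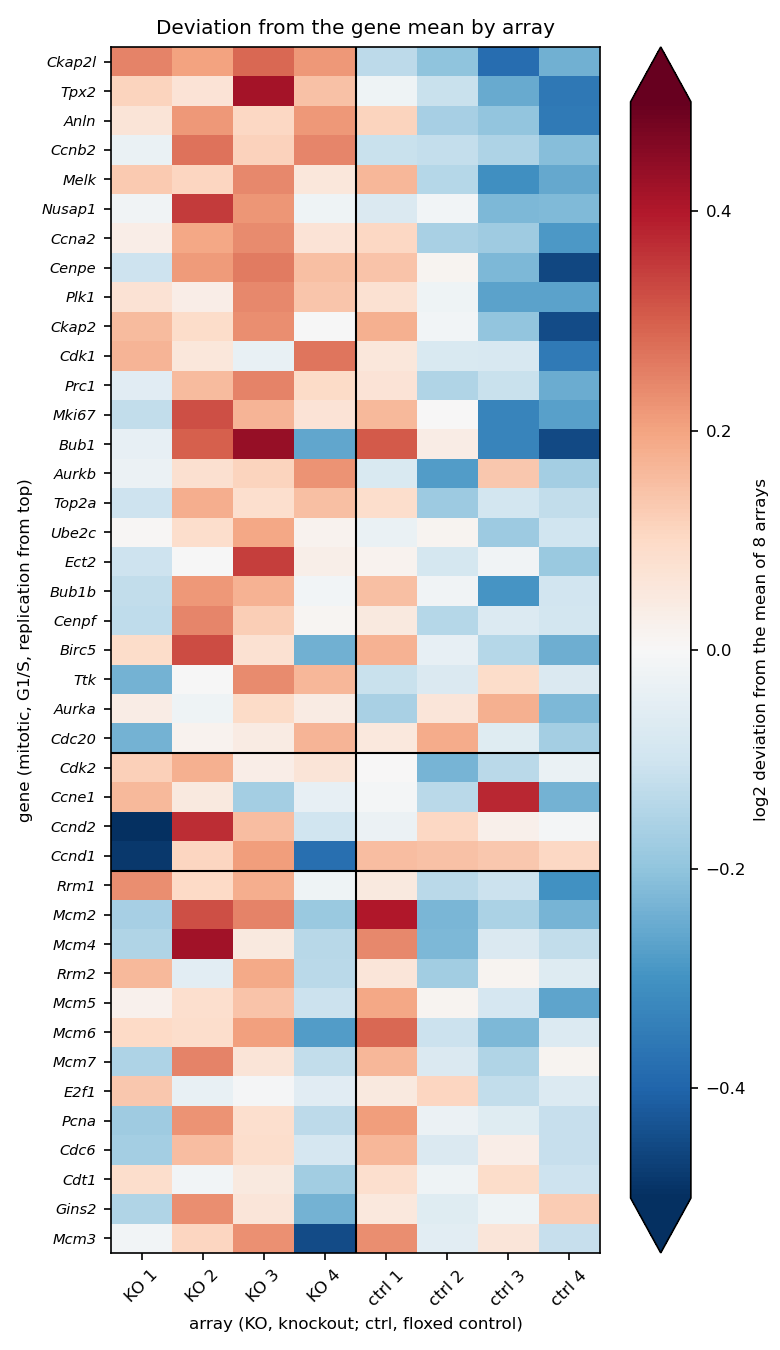
Deviation of each tested cell cycle gene from its mean over the 8 arrays (log2; colours end at 0.5 on either side), with knockout arrays in the left columns, control arrays in the right columns, and mitotic, G1/S and replication genes from top to bottom. Control replicate 4 is low across the mitotic genes, and control replicate 1 is high across the replication genes.

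Other cell cycle genes were examined from lists of the same pathway. Of 177 tested genes in 10 lists 115 had a higher and 62 a lower mean, and the median was 0.04, against 51.2% higher among all genes. At an unadjusted limma p under 0.05 there were 19 higher and 2 lower of the 177, where 5.64% of all genes were higher and 5.61% lower, and 0 passed after adjustment. All 12 mitotic kinesins, the motors that build and move the spindle, had higher means, with a median of 0.20, among them Kif20a (0.27 ± 0.09), Kif2c (0.26 ± 0.10) and Kif18a (0.25 ± 0.08). In the spindle and centrosome list 17 of 23 were higher (median 0.15), 6 of the 23 at an unadjusted p under 0.05 (5.64% among all genes). These included Cdca8 (borealin, 0.38 ± 0.11), Tacc3 (0.35 ± 0.10), Dlgap5 (0.31 ± 0.10) and Gtse1 (0.27 ± 0.08). These 4 were the genes of the 23 that were higher without overlap of the groups, and 0 of the 23 were lower without overlap. Among all genes tested the shares were 2.33% and 2.9%. Kinetochore genes were higher in 19 of 27 cases (median 0.10), with Cenpm at 0.36 ± 0.08, Cenpn at 0.29 ± 0.08 and Nuf2 at 0.42 ± 0.15.

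Lists of replication and of the general machinery had medians near that of all genes. For the origin recognition complex and replisome 16 of 31 were higher and 15 lower (median 0.00). At an unadjusted limma p under 0.05 there were 3 higher and 1 lower of the 31, against 5.64% and 5.61% of all genes tested. Rpa2 of the single-strand binding complex was at a difference of 0.30 ± 0.11 and the clamp loader gene Rfc1 at -0.24 ± 0.09. For nucleotide synthesis 5 of 8 were higher (median 0.04), with the thymidylate synthase gene Tyms at 0.33 ± 0.10. Condensin and cohesin genes were higher in 13 of 23 cases (median 0.02), with the cohesin regulator gene Pds5a at -0.18 ± 0.08, and anaphase-promoting complex genes in 9 of 17 (median 0.02).

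Regulators of the cycle were as follows. RB, E2F and DREAM genes were higher in 9 and lower in 10 of 19 cases (median -0.01). Their differences ran from -0.23 to 0.18, with 0 genes in either direction at an unadjusted limma p under 0.05. Among them Mybl2, which encodes B-MYB, differed by 0.18 ± 0.09 and Foxm1 by 0.16 ± 0.08, both with limma adjusted p = 0.489. The smallest limma adjusted p of this list, 0.468, was that of another gene. CDK inhibitor genes were higher in 6 of 7 cases (median 0.03), with Cdkn2d (p19) at 0.21 ± 0.07 and the p53 target Cdkn1a (p21) at 0.30 ± 0.15. Other G1 cyclins, CDKs and their regulators were higher in 9 of 10 cases (median 0.06), with the mitosis-delaying kinase gene Wee1 at 0.26 ± 0.08 and the phosphatase gene Cdc25a at 0.38 ± 0.15.

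Marker scores of several cell types varied between the hearts, 0 of these marker genes passed the adjusted test, and the arrays do not show which cells the cell cycle transcripts came from. The score of activated fibroblast markers (13 of 13 above the level filter) was 1.09, 0.06, -0.36 and 1.08 in knockout hearts, against 0.39, -0.98, -0.78 and -0.49 in control hearts. The mean was higher in the knockout for 12 of the 13, at a median difference of 1.07, where 51.2% of all genes tested were higher. At an unadjusted limma p under 0.05 there were 9 higher, against 5.64% of all genes tested. The fibroblast and mitotic scores were both higher on average in the knockout hearts. Among the knockout hearts replicate 3 had the highest mitotic score and the lowest fibroblast score, whereas among the control hearts replicate 1 had the highest score of both kinds. Knockout replicates 1 and 4, with the highest fibroblast scores, were those with low Ccnd1. Macrophage and monocyte markers (15 of 15 above the filter) had scores of -0.09 to 0.22 in knockout hearts, against -0.24 to 0.09 in control hearts, and lymphocyte markers (7 of 12 measured above the filter, with Cd3d, Cd3g, Cd2, Cd79a and Ms4a1 below it) -0.08 to 0.20, against -0.16 to -0.00. Resting fibroblast markers (12 of 12 above the filter) had scores of -0.13 to 0.22 in knockout hearts, against -0.31 to 0.15 in control hearts. Endothelial markers (12 of 12 above the filter) had scores of -0.14 to 0.17 in knockout hearts, against -0.02 to 0.10 in control hearts. Cardiomyocyte markers (15 of 15 above the filter) had scores of -0.23, 0.08, 0.01 and -0.19 in knockout hearts (replicates 1 to 4), against 0.03 to 0.11 in control hearts. The low scores were thus those of knockout replicates 1 and 4. The mean of cardiomyocyte markers was lower in the knockout for 13 of the 15, at a median difference of -0.14, where 48.8% of all genes tested were lower. At an unadjusted limma p under 0.05 there were 5 lower and 0 higher, against 5.61% and 5.64% of all genes tested. Without overlap there were 2 lower and 1 higher, against 2.9% and 2.33%. The part of these markers in the mitotic values was not tested.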

How the data were processed

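Total RNA isolated from frozen hearts was labelled with biotin for Affymetrix arrays, per the labels' protocols. What the authors deposited is 1 log2 value per probe set and array (41345 probe sets, 8 arrays), made with RMA, and limma is also named, per the submitters' processing notes, which give no versions. Array build and array batches are not stated there. Because RMA equalises the arrays, it would hide a change common to all genes.

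Of 23521 probe sets with 1 gene symbol in the platform annotation, 23328 took their symbol from the RefSeq gene table by Entrez identifier. Genes were tested when their mean over the 8 arrays reached the 40th percentile of probe set means. Knockout minus control was fitted with limma 3.58.1 in R 4.3.3 (lmFit and eBayes), with Benjamini-Hochberg adjustment over all 15086 genes and a threshold of 0.05. Intervals are at the 95% level, and the number of arrays limits their precision. Single genes also had an exact two-sided permutation test over 70 assignments. The fit was tested on simulated data. Genes described array by array were those with no overlap, the 3 with the smallest p in each class and a fixed panel. At most 4 genes are named from each other list, taken from those with small p but not always the smallest. The genes, lists, classes and alternatives were chosen with earlier results of these data known.

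Alternatives changed the filter (none, or the 60th percentile), the normalization (quantile again, or equal medians), the summary of probe sets (their mean), the variance model (trend and robust, array weights, unmoderated), the pairing (a block for the replicate number), the arrays (each left out, and knockout replicates 1 and 4 left out together) and the class of the G1/S genes (counted as mitotic). Counts within classes and at an unadjusted p were added to these after seeing the data.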

Additional observations from a re-analysis of the deposited data

Results flagged for a closer look

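Mcm2 in control replicate 1 stood at 6.15 (log2 signal), far from the other 3 control hearts, whose highest value was 5.59 and lowest 5.52. It was the 1 value so marked in 82 groups of 4 hearts that were examined (41 genes in 2 groups), where chance marks about 1 group in 20.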

How the results depend on the processing

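No gene passed an adjusted p of 0.05 under any alternative run (0 each, with 617 to 2390 genes at an unadjusted p under 0.05). Cell cycle genes with a higher mean in the knockout numbered 33 of 41 in the main fit. Under the alternatives their number ran from 29 of 35 tested (filter at the 60th percentile) to 39 of 41 (without knockout replicates 1 and 4). It was 30 of 41 without knockout replicate 2 and also without control replicate 4, a lower share than in the main fit. The median difference of the mitotic genes, 0.22, ran from 0.15 to 0.28. The mitotic median exceeded the replication median under every alternative run, by 0.13 (without knockout replicates 1 and 4) to 0.23 (array weights). Without knockout replicates 1 and 4 the median over all cell cycle genes was 0.24 in place of 0.13. With each array left out, 5 to 16 cell cycle genes were higher and 0 to 1 lower at an unadjusted p under 0.05. Differences near 0 took either sign: Pcna was at -0.0053 with equal array medians and at -0.074 to 0.070 with arrays left out, Mcm5 at -0.0071 to 0.15 with arrays left out, E2f1 at -0.015 without knockout replicates 1 and 4 and at -0.027 to 0.055 with single arrays left out. Without knockout replicates 1 and 4 Ccnd1 was at 0.022 and Ccnd2 at 0.24, and with single arrays left out Ccnd2 ran from -0.17 to 0.12. The cause of these changes was not tested. Some settings gave no value because the gene fell below the level filter: Rrm2 with the mean of its probe sets, and E2f1 and Ckap2l with the filter at the 60th percentile.

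Whether the replicate number pairs the hearts is not clear. Same-numbered hearts correlated at 0.36, 0.01, 0.28 and -0.03 in their deviations from the group means, and 2 of 4 correlated best with their own number. With the replicate block 0 genes were called, and the smallest limma adjusted p was 0.125 in place of 0.277. At an unadjusted limma p under 0.05 there were 2177 in place of 1697 genes over the whole table. Of the cell cycle genes, 8 in place of 11 were higher at that threshold.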
